A study of Mus musculus with 8 samples.

Results

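These results cover 721 bins of 50 kb of the mouse genome that already replicated in the middle or late part of S phase and replicated later still after CTCF was depleted. The bins were chosen by the measured scores themselves. A bin qualified if its mean score over the 2 auxin profiles lay 0.8 or more below its mean over the 2 control profiles, both auxin values lay below both control values, and its control mean was 0.5 or lower. Only the 19 autosomes and bins with 3 or more measured windows were used. The 721 bins were 1.76% of 41018 autosomal bins and 2.94% of the 24543 with a control mean of 0.5 or lower, and they covered 36.05 Mb. A bin with a control mean from -0.5 to 0.5 is called middle here and one below -0.5 late: 269 of the bins were middle and 452 (62.7%) were late. The label given to these bins, middle and late bins delayed further, is therefore what the rule itself selects.

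The cells were E14Tg2a mouse embryonic stem cells, a male line of 129/Ola background kept in serum with leukemia inhibitory factor. Per the labels, CTCF carried an auxin-inducible degron and was depleted with 500 µM indole-3-acetic acid, an auxin, for 2 days. The control cells were left without auxin. Each group had 2 replicates, and each replicate gave 1 early and 1 late S-phase library after a 2-hour pulse of BrdU, so 8 libraries were joined by the authors into 4 timing profiles. Both groups are taken to be the same engineered line; the sources used here do not say which subclone was used or what drives the receptor that recognises auxin. No profile of auxin-treated cells without the degron was used here, so the loss of CTCF and other effects of auxin cannot be told apart. The files hold no measure of CTCF protein or of stem cell markers, so neither the depletion nor the cell type could be checked. Nothing in the labels says that the replicates were separate cultures, so the spread between them may be technical.

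Mammalian genomes are copied in a set temporal order. Gene-rich, active and nuclear-interior chromatin replicates early, and gene-poor chromatin at the nuclear lamina replicates late, with transitions between such domains. A local maximum of a timing profile marks a region where origins fire earlier than in its surroundings, and a slope marks a region that forks or later origins cross. CTCF binds a long DNA motif, holds cohesin loops in place and bounds topologically associating domains. In the scores used here a higher value means earlier replication. Their unit is arbitrary, since the sources used here do not state the formula or log base behind them, and all 4 profiles were forced to 1 common distribution, so a shift of the whole genome cannot be seen.

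The sequences below show 2 properties on which the genes of these bins can be read: the CpG content of their promoters and matches to letters found in the core of the CTCF motif. Sequences are the 250 bases before the annotated start, 5′ to 3′ on the gene's strand, from the RefSeq GRCm38.p6 table, whose coordinates are those of mm10. The first 4 are from genes of the runs of bins described below, and capitals mark CG dinucleotides. Lef1 encodes the HMG-box factor through which Wnt signalling reaches DNA, and its promoter is read from chr3:131110047-131110296, plus strand. Rpl34 encodes a protein of the large ribosomal subunit and lies in the same run (chr3:130730399-130730648, minus strand). Foxa1 encodes a pioneer factor of endoderm (chr12:57546112-57546361, minus strand). Scn2a encodes the alpha subunit of a neuronal sodium channel (chr2:65620519-65620768, plus strand).
Lef1: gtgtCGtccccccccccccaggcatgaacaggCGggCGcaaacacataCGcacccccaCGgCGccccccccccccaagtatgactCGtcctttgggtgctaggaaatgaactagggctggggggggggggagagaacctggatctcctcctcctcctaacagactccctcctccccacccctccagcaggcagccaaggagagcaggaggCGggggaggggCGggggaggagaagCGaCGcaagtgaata
Rpl34: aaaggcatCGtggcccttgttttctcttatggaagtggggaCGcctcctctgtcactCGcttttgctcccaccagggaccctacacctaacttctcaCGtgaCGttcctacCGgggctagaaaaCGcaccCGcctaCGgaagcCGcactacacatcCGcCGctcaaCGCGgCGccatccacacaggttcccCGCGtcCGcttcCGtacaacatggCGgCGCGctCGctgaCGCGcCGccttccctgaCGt
Foxa1: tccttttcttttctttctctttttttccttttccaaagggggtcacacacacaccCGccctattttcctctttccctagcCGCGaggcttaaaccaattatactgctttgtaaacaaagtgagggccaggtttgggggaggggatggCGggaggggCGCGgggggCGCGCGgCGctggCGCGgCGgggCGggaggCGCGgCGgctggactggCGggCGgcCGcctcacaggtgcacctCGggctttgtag
Scn2a: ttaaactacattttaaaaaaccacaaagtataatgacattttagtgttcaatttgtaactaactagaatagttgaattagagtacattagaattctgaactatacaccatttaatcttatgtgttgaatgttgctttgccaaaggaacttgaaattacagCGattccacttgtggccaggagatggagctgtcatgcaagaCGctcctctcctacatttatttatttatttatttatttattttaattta
The Rpl34 promoter held 27 CpG and that of Foxa1 21, against 11 for Lef1 and 2 for Scn2a. The promoters of delayed genes thus ran from CpG-rich to nearly devoid of CpG.

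The motif letters searched were CCANNAGNNGGC, 12 bases on either strand, a shortened core of the CTCF motif; a match is not a measured binding site. Of the 207 promoters with a start in the 721 bins, each of 300 bases (250 before and 50 after the start), 4 (1.93%) held a match, beside 66 of 4626 promoters (1.43%) in all bins with a control mean of 0.5 or lower and 330 of 15591 (2.12%) in all tested bins. They belonged to Twistnb, Gfm1, Peg12 and Gm41099. The matches of 3 of them are shown in capitals: Twistnb, a subunit of RNA polymerase I (chr12:33429374-33429623, plus strand), Gfm1, a mitochondrial translation elongation factor (chr3:67429865-67430114, plus strand), and Peg12, an imprinted gene of the Prader-Willi region (chr7:62464511-62464760, minus strand).
Twistnb: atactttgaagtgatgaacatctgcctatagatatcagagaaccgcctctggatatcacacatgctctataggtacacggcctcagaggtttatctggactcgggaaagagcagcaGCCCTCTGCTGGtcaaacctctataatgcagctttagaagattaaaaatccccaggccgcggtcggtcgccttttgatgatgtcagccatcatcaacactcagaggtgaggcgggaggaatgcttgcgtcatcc
Gfm1: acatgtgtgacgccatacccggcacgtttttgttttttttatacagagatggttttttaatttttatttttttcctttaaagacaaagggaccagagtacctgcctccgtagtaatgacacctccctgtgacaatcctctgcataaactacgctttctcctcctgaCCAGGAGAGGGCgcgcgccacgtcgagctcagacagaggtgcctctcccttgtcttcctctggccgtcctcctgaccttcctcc
Peg12: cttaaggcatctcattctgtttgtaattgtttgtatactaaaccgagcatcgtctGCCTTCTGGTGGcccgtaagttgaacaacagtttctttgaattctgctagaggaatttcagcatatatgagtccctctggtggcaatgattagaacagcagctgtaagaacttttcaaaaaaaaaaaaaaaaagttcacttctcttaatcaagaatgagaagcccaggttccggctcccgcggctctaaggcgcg
The bins in which these genes start fell by 0.91 for Twistnb, 0.93 for Gfm1 and 1.15 for Peg12. The share with a match was so low in every set that these few promoters describe little of the 721 bins.

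In the 721 bins the control scores were spread from middle to very late, and the auxin scores lay about 1 unit lower throughout. Control replicate 1 ranged from -3.47 to 0.68 with a median of -0.91, and control replicate 2 from -3.16 to 0.81 with a median of -0.80. Auxin replicate 1 ranged from -4.50 to -0.19 with a median of -1.88, and auxin replicate 2 from -4.18 to -0.12 with a median of -1.88. The ranges of the groups overlap across bins, but within each bin they do not, as the rule requires. For scale, the median of all autosomal bins with a control mean of 0.5 or lower was -1.87 in auxin replicate 1 and -1.86 in control replicate 2, so the median chosen bin moved from the earlier side of that population to its middle.

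The difference, auxin mean minus control mean, had a median of -0.93 and ran from -0.80 to -1.83, while over all bins with a control mean of 0.5 or lower its median was 0.016. It was -1 or lower in 256 bins and -1.5 or lower in 18. Among the 269 middle bins, 237 had both auxin values below -0.5, the border of late replication, and 123 had both below -1. These differences chose the bins and are given as a description. The limit cuts a continuous range: 163 bins lay just inside it, between -0.85 and -0.8, with median scores of -1.13 in control and -1.95 in auxin, and 176 lay just outside, between -0.8 and -0.75, with medians of -1.19 and -1.98.

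The spread between replicates in these bins was near that of the whole control range. The median gap between the 2 auxin profiles in these bins was 0.24 and that between the 2 control profiles 0.19, close to 0.22 and 0.23 over all bins with a control mean of 0.5 or lower. The gap between the lower control value and the higher auxin value had a median of 0.71, a minimum of 0.027, and exceeded the larger of the 2 replicate gaps in 583 of the 721 bins; the rule selects for such a gap, so these counts are no sign of reproducibility. Both auxin values lay below both control values in 26.3% of all autosomal bins, so that this condition alone was often met. It removed 0 bins of the control range that met the limit on the difference, so the size of the difference did the selecting. In a limma fit over all 42710 bins with 3 or more windows, 435 (1.02%) were later at a Benjamini-Hochberg adjusted p under 0.05, and 222 of the 721 were among them; since the fit and the rule use 1 contrast, nothing is read from that count. That count rests on 2 residual degrees of freedom and moves widely with the settings. It rose to 657 of the 721 with the replicate number as a block. With the median of the windows of a bin, 71 of the 750 bins that then met the rule were called.

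Most runs of adjacent bins were 1 bin long, but most of the bins, 517, lay in runs of 2 or more. The delayed bins formed 364 runs. Of these runs, 204 were 1 bin long, 87 were 2, 20 were 3 and 53 were 4 or more bins long. The runs of 4 or more held 283 bins. The longest run spanned 15 bins. The bins beside the runs moved too: 690 neighbours had a median difference of -0.63, and 689 (99.9%) were below 0, beside 48.4% of all bins with a control mean of 0.5 or lower. Neighbouring bins are crossed by the same forks and may share smoothed reads, so this count shows the width of the changes and is no independent support. In 45 runs a neighbour was itself an early bin delayed by 0.8 or more, so these runs are the later flank of a wider delay. A protein-coding gene body was absent from 130 of the 364 runs.

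**Figure D1:**
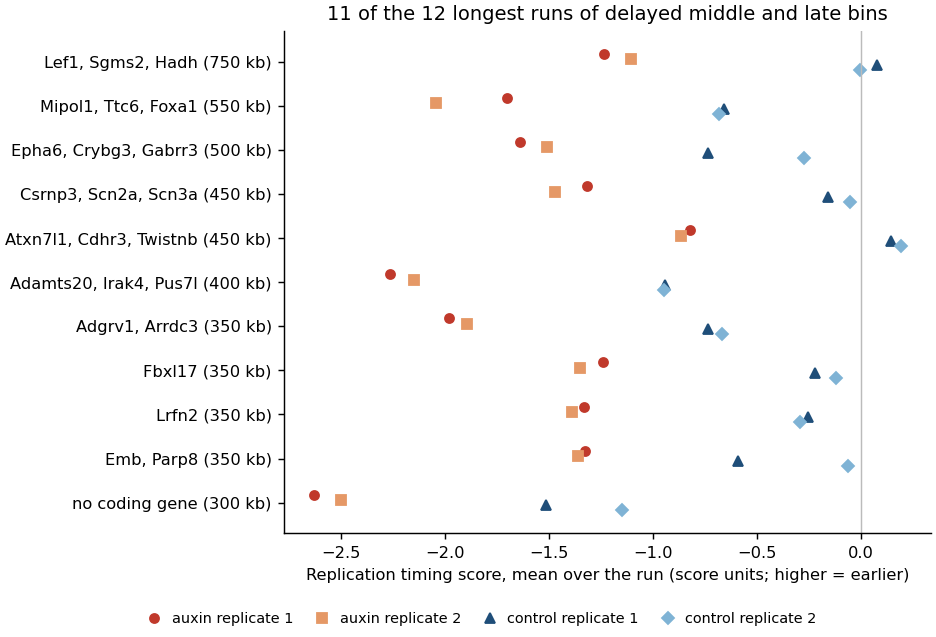
Mean timing score over 11 of the 12 longest runs of delayed bins, with 1 point per profile (score units, higher is earlier) and the run's first-named genes and length at the left. In every run both auxin points lie left of both control points, as the rule requires, and the control replicates lie furthest apart in the runs of Epha6 and Emb.

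The longest run covered 750 kb of chromosome 3 (chr3:130650001-131400000) and held 6 protein-coding genes: Ostc, a subunit of the oligosaccharyltransferase, Rpl34, Lef1, Hadh, a mitochondrial enzyme of fatty acid oxidation, the cytochrome P450 gene Cyp2u1, and Sgms2, a sphingomyelin synthase. Its mean score was 0.08 and -0.0028 in the control replicates and -1.23 and -1.10 in the auxin replicates, 0.037 ± 0.057 against -1.17 ± 0.093 (SD, n = 2), a difference of -1.21. All 15 bins fell by 0.82 or more, and the largest falls were at the 5′ side of Lef1: the bin just upstream went from 0.33 to -1.26, a difference of -1.59, and the bin of the Lef1 start from 0.50 to -1.06, a difference of -1.56. That start bin has the highest control mean of the 721 and sits at the limit of the rule. Over the Lef1 body the scores were 0.44 and 0.22 in control and -1.06 in both auxin replicates.

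The Lef1 run was a raised block in control cells. The 250 kb to its left had a control mean of -1.69 and the 250 kb to its right -0.85, around 0.037 in the run. The 4 bins measured on the right are themselves a run of delayed bins, with Papss1 and part of Sgms2. On that side delayed bins are thus set against other delayed bins. With auxin the same stretches were at -1.97, -1.17 and -1.83: the block remained above its flanks, but by less than in control on both sides.

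The next run lay on chromosome 12 (chr12:57250001-57800000) and held Foxa1 with its neighbours Mipol1 and Ttc6. The control replicates were at -0.66 and -0.68 and the auxin replicates at -1.70 and -2.04, a difference of -1.21. In control the profile peaked in the bin of the Foxa1 start, at 0.30 and 0.16 in replicates 1 and 2, where auxin gave -0.88 and -1.16. The largest fall was not there but inside Mipol1, where a bin went from -0.04 and -0.06 to -1.57 and -1.66. Foxa2, a paralog of Foxa1 that also acts in endoderm, lies in a run of 2 bins on chromosome 2 (chr2:148000001-148100000) with a difference of -1.24. The 1 window inside the Foxa2 body read -1.05 and -0.91 in control and -2.20 and -2.57 with auxin. These were 2 of the 13 forkhead genes with a control mean of 0.5 or lower, beside 4.29% of all 5849 genes in that range. With so few genes the count is a description.

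**Figure D2:**
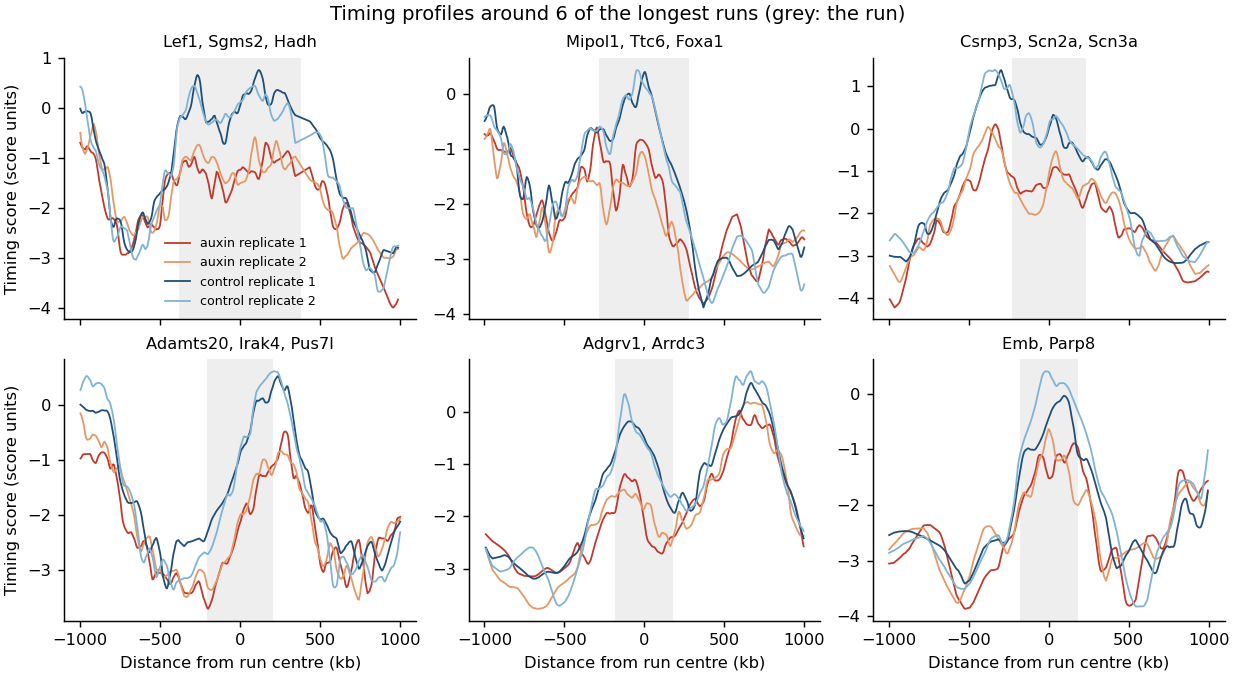
Scores of single windows against the distance from the centre of 6 of the longest runs (kb), with the run in grey and 1 line per profile (score units, higher is earlier). At Adgrv1 and Arrdc3 both control profiles rise to a local peak in the run that is lower with auxin; at Lef1 a lower block remains with auxin, and at Scn2a the run descends from an earlier stretch on its left, and at Adamts20 the control score rises across the run.

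On chromosome 2 a run of 9 bins (chr2:65550001-66000000) held Scn2a, part of the sodium channel gene Scn3a and Csrnp3, with -0.15 and -0.05 in control and -1.32 and -1.47 with auxin. Its first bin, at the edge of Scn3a, had the largest difference of all 721: 0.48 and 0.31 in control, -1.33 and -1.54 with auxin, a difference of -1.83. Over the Scn2a body control was -0.14 ± 0.11 and auxin -1.64 ± 0.33 (SD, n = 2). The control score was 0.98 in the 250 kb to the left of the run and -0.97 to the right, so the run was a descending flank of an early peak. That peak fell as well: the 250 kb to the left had an auxin mean of -0.60.

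Over the body of Kcnt2, which encodes a sodium-activated potassium channel on chromosome 1, control was -1.26 and -0.67 and auxin -2.10 and -1.89, or -0.97 ± 0.42 against -2.0 ± 0.14 (SD, n = 2). The control replicates lie further apart there than at Scn2a. The groups do not overlap, as the rule required of the delayed bins that the gene spans.

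The chromosome 16 run (chr16:59350001-59850000) held Gabrr3, a subunit of GABA receptors, Crybg3 and one end of Epha6, an ephrin receptor; control was -0.73 and -0.27 and auxin -1.64 and -1.51. The 2 control replicates differ here by more than in most runs. The higher auxin value lies below the lower control value, as the rule requires of every bin. Lrfn2, a synaptic adhesion gene, filled most of a run on chromosome 17 (chr17:48900001-49250000) with -0.25 and -0.29 in control and -1.33 and -1.39 with auxin. A shorter run on chromosome 16 (chr16:42150001-42400000) with the growth-cone gene Gap43 and the neural adhesion gene Lsamp went from -0.82 and -1.12 to -2.08 and -2.04.

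Adamts20, a secreted metalloprotease, shared a run on chromosome 15 (chr15:94200001-94600000) with Irak4, a kinase of Toll-like and interleukin-1 receptor signalling, and Pus7l, a pseudouridine synthase family gene. The run went from -0.94 and -0.95 in control to -2.27 and -2.15 with auxin. Its differences grew towards Irak4, from -1.05 in the first bin of Adamts20 to -1.49 in the last bin, while the control score rose from -1.95 to 0.31. Smad9, a transducer of BMP signals, had one of the larger shifts of a gene body: -0.48 and -0.59 in control and -1.97 and -2.07 with auxin, a difference of -1.49. Atxn7l1, Cdhr3 and Twistnb shared a run on chromosome 12 (chr12:33050001-33500000) that was the earliest of the 12 in control, at 0.15 and 0.20, and at -0.82 and -0.86 with auxin.

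A further long run held Arrdc3 and one end of Adgrv1, an adhesion receptor needed for hearing (chr13:80850001-81200000, -0.73 and -0.67 in control, -1.98 and -1.89 with auxin). Over the whole Adgrv1 body the difference was -0.59. Others held Fbxl17, an F-box protein (chr17:63300001-63650000, -0.22 and -0.12, then -1.24 and -1.35), and Emb, a partner of monocarboxylate transporters, with the start of Parp8 (chr13:117000001-117350000, -0.59 and -0.06, then -1.33 and -1.36). The run at chr13:25950001-26250000 held no protein-coding gene and was the latest of the 12, from -1.52 and -1.15 to -2.63 and -2.5. A run of 5 bins held Lrig3 (chr10:125800001-126050000) with a difference of -1.44, and another held Mtap and the cell cycle inhibitor genes Cdkn2a and Cdkn2b (chr4:89150001-89400000) with -1.02.

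In control cells the delayed bins often stood above their surroundings, and with auxin they did so less often and by less. Each bin was compared with the bins 250 kb to either side, and called a local peak when it lay 0.25 or more above both. Of the 638 bins with both flanks measured, 240 (37.6%) were local peaks in control, beside 2119 of 20261 (10.5%) of all bins with a control mean of 0.5 or lower. With auxin 127 of the 638 were, while over all such bins the count went from 2119 to 1880. The median height above the flanks went from 0.60 to 0.10 in the delayed bins and from -0.29 to -0.25 over all, so that the delayed bins still stood above the level of the range with auxin. It went from 0.93 to 0.47 in the middle bins and from 0.42 to -0.16 in the late ones. Middle bins were peaks in control in 42.5% against 15.8% of all middle bins, and late bins in 34.1% against 8.85%. Choosing bins that are high in control and low with auxin favours such peaks by itself, so these shapes are a description; heights in profiles not used for choosing follow below.

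**Figure D3:**
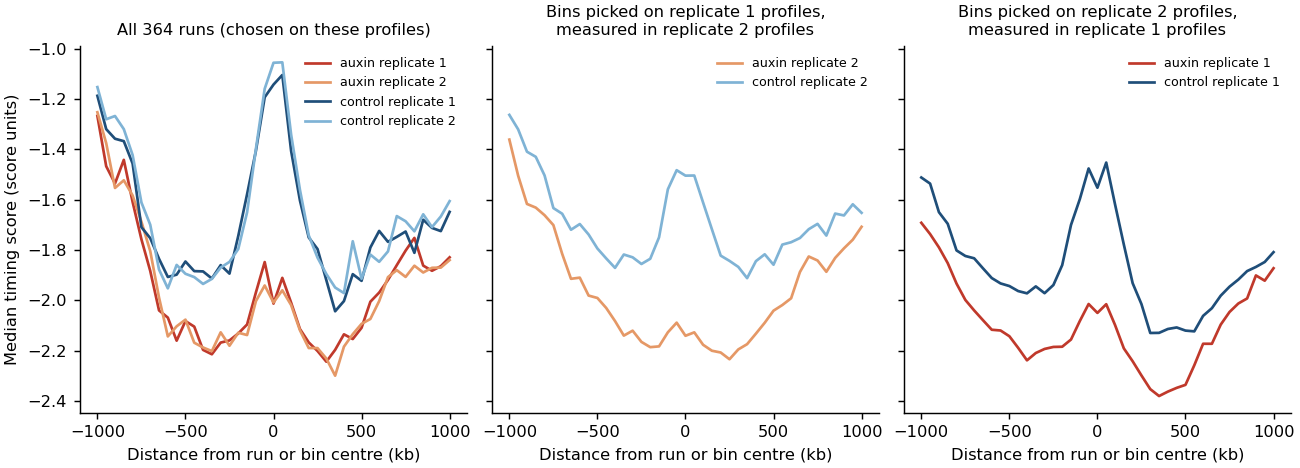
Median timing score by distance from the centre of the run or bin (kb), for the 364 runs in the 4 profiles that chose them (left) and for bins picked on the profiles of 1 replicate and read in those of the other (middle and right). The peak of the control lines at the centre is far lower in the auxin lines in the left panel, and in both panels of unused profiles the auxin line lies below the control line at the centre.

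Whole runs were also compared with their flanks. Of 356 runs with flanks, 112 were islands in control, 0.25 or more above both sides, 133 were edges between a higher and a lower side, 1 was a trough below both, and 110 were mixed. With auxin 38 were islands, 35 of them islands in control too, 112 were edges, 42 troughs and 164 mixed. The median over all runs was -1.14 and -1.05 at the centre in control and -2.01 in both auxin replicates. At 400 kb to the left it was -1.89 and -1.94 in control and -2.20 and -2.19 with auxin. Flanks therefore also lay lower with auxin, by less than the centre.

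To measure the delay in profiles that had not chosen the bins, bins were picked with the same limits on the pair of profiles numbered replicate 1 and measured in the pair numbered replicate 2, and the reverse. The 1031 bins picked on replicate 1 had a median difference of -0.56 in the unused pair, 86.0% were below 0 and 35.1% were -0.8 or lower, beside 0.0076, 49.3% and 5.81% over all 24528 bins in the same control range. The 1364 bins picked on replicate 2 had -0.49, 80.7% and 26.0%, beside 0.018, 48.5% and 4.23% of 24559. Pairing each auxin profile with the other control gave -0.45 and -0.53. The delay was thus found again in unused profiles at a smaller size than in the profiles that picked it, where the medians were -0.96 and -0.98.

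Bins with a larger delay in the picking pair had a larger delay in the unused pair. For replicate 1 picks, bins at -0.6 to -0.8 had a median of -0.38 in the unused pair, those at -0.8 to -1 had -0.50, those at -1 to -1.2 had -0.60 and those below -1.2 had -0.91, with 96.1% of the last below 0. For replicate 2 picks the steps were -0.30, -0.41, -0.57 and -0.72. Bins picked for an advance of the same size read 0.51 and 0.54 in the unused pairs, so advanced bins of the same control range repeated to a like extent.

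**Figure D4:**
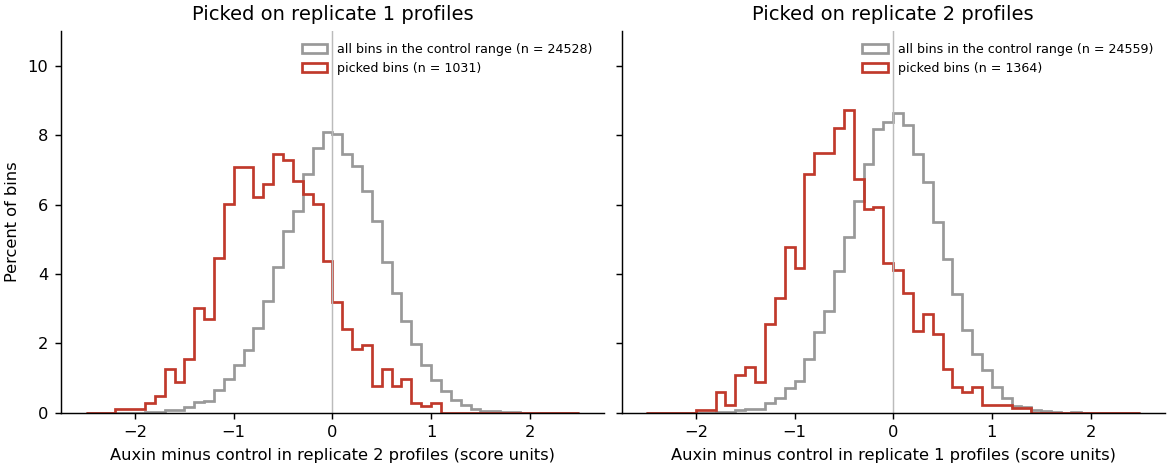
Distribution over bins of the difference auxin minus control (score units) in the pair of profiles not used for picking, in percent of bins, for picked bins and for all bins of the control range. The picked bins are centred at -0.56 and -0.49 and overlap the others broadly, which are centred near 0.

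The loss of height was present in unused profiles as well. Bins picked on replicate 1 lay 0.21 above their flanks in the unused control profile and 0.013 in the unused auxin profile, beside -0.29 and -0.24 over all bins of the range. Bins picked on replicate 2 lay 0.38 above their flanks in the unused control and 0.19 in the unused auxin profile, beside -0.28 and -0.25. In both unused pairs the median height of the picked bins was lower with auxin than in control, while over all bins of the range it was slightly higher with auxin.

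The share of bins delayed by 0.8 or more depended on where in S phase a bin replicated. It was 0.53% of bins with a control mean below -2.5, 2.35% between -2.5 and -2, 4.33% between -1.5 and -1, 6.0% between -0.5 and 0 and 5.23% between 0 and 0.5. The share advanced by 0.8 or more in the same bands was 2.14%, 2.41%, 4.22%, 4.15% and 4.04%. The control values enter both this order and the difference. Ordered by the mean of all 4 profiles, 1.52% of bins below -2.5 were delayed and 1.27% advanced, 5.79% and 4.64% between -1 and -0.5, and 5.45% and 3.75% between -0.5 and 0. On this axis too, the latest bins were changed least often in either direction.

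The bins were spread unevenly over chromosomes. As a share of bins with a control mean of 0.5 or lower, chromosome 12 had 6.01% (71 bins), chromosome 13 had 4.66% (67 bins), chromosome 15 had 4.48% (45 bins), chromosome 17 had 4.32% (39 bins) and chromosome 3 had 4.11% (76 bins). Chromosome 11 had 1.21% (11 bins) and chromosome 19 0.362% (2 bins). Adjacent bins enter these counts together, so a few long runs can set them. Bins with more windows qualified more often: 1.75% of bins with 3 to 5 windows, 3.21% with 6 or 7 and 3.31% with 8 or 9.

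Delayed bins held the start of a protein-coding gene more often than bins of the same control range. Of 683 bins outside chromosome 18, whose starts are not used here, 165 (24.2%, Wilson 95% interval 21.1 to 27.5) held the start of a protein-coding gene, beside 15.5% of all bins with a control mean of 0.5 or lower and 27.4% of all autosomal bins. The early bins that were delayed stood at 38.4%, and bins of the same range that were advanced at 17.2%. The interval covers counting error only and is too narrow, since adjacent bins of 1 run share their genes. A gene body overlapped 444 of the 721 bins (61.6%), beside 49.6% of bins with a control mean of 0.5 or lower.

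Delayed bins replicate earlier in control than most of the range, so the shares were also compared within bands of control timing. Between -2 and -1.5 the share with a start was 25.3% in delayed bins and 14.9% in the others, between -1.5 and -1 it was 25.5% and 17.3%, and between -1 and -0.5 it was 30.8% and 19.9%. Below -2 the shares were 10.1% and 10.3%, between -0.5 and 0 they were 23.2% and 21.5%, and between 0 and 0.5 they were 30.8% and 26.2%. Among late bins that were local peaks in control, 39 of 120 delayed bins (32.5%) held a start, beside 17.3% of the other late peaks. In bins picked on 1 pair of profiles the share was 19.4% for replicate 1 and 19.3% for replicate 2, beside 15.5% and 15.4%. Ordered by the mean of all 4 profiles, the shares were 16.8% and 10.4% below -2, 23.2% and 14.6% between -2 and -1.5, 28.9% and 17.8% between -1.5 and -1, 24.5% and 19.4% between -1 and -0.5, and 32.1% and 22.1% between -0.5 and 0. The bands in which the shares differ thus depend on how bins are ordered, and the gap was smaller in picks from single pairs.

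**Figure D5:**
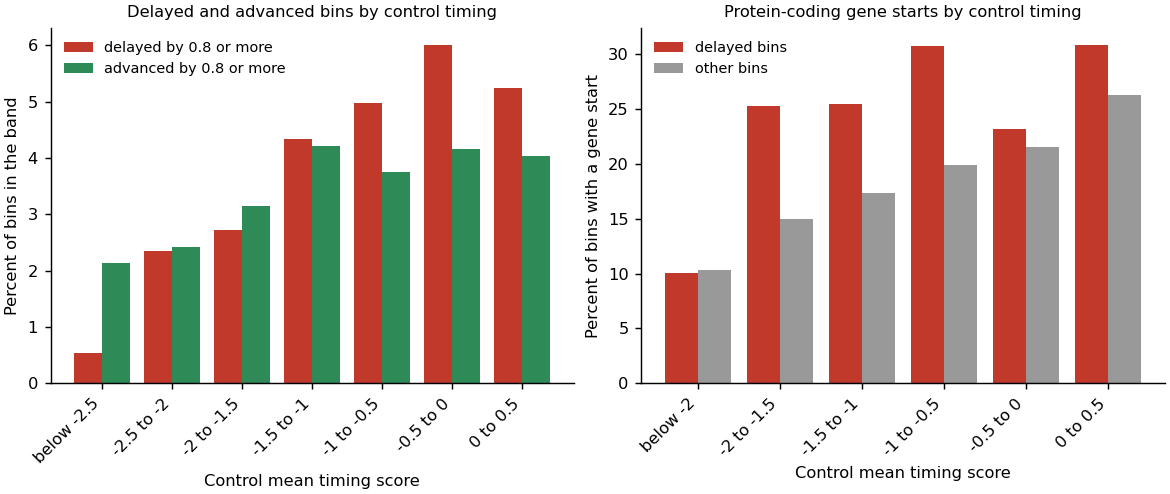
Left, percent of bins delayed or advanced by 0.8 or more in bands of the control mean score; right, percent of delayed bins and of other bins that hold the start of a protein-coding gene in bands of the control mean score, chromosome 18 left out. The right panel shows 25.3% against 14.9% between -2 and -1.5, and nearly equal bars below -2.

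The promoters in these bins had a median CpG content between that of the control range, middle bins included, and that of all genes; the sets were not matched for timing. The 207 promoters had a median GC content of 52.4% and a median ratio of observed to expected CpG of 0.43; 88 (42.5%) had a ratio of 0.6 or more, a common mark of CpG islands. The 4626 promoters in all bins with a control mean of 0.5 or lower had 48.4%, 0.31 and 29.7%, and the 15591 promoters in all tested bins 56.4%, 0.58 and 48.6%. Of the 4 promoters printed with CG in capitals, Rpl34 (ratio 1.19) and Foxa1 (0.89) are above that limit, and Lef1 (0.40) and Scn2a (0.37) below it.

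The bins touched the bodies of 370 protein-coding genes, and 251 genes had the centre of their body in one, 1.29% of 19500 tested genes and 4.29% of the 5849 whose centre lies in a bin with a control mean of 0.5 or lower. Of these 251, 144 had 3 or more windows over the body; in all 144 both auxin values lay below both control values, beside 30.4% of all gene bodies with 3 or more windows, and their median difference was -0.92. That count follows from the rule and is given for completeness. The median body was 22.5 kb long, beside 19.7 kb for genes in all bins of the range, and 39 genes spanned 3 or more of the 721 bins.

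Of 23 gene lists, none had more than 5 genes in the delayed bins, apart from the olfactory and vomeronasal receptors. Of the Wnt pathway genes, 3 of 14 with a control mean of 0.5 or lower had their centre in one: Lef1 and the Frizzled receptor genes Fzd4 and Fzd8. For the basic helix-loop-helix genes of neurogenesis it was 3 of 12, Neurod6, Tcf4 and Ptf1a. For the TGF-beta family it was 2 of 24, Smad9 and the activin receptor gene Acvr1c. For homeobox genes outside the Hox clusters it was 3 of 44, Dlx5, Dlx6 and Nkx3-2. For the list of sodium, potassium and calcium channel genes it was 3 of 52, Scn2a, Kcnt2 and Kcnk9. The share of all genes in that control range was 4.29%, and with so few genes per list, of which Dlx5 and Dlx6 share a bin, these counts are descriptions.

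Among receptors and ligands, Fzd4 read -0.27 and 0.18 in control and -0.86 and -0.65 with auxin, over 1 window, the smallest of the shifts in this group of genes. Acvr1c read -1.41 and -1.89 in control and -2.32 and -2.52 with auxin. The gene of the chemokine Cxcl12, the latest of the named genes but for Slc7a11, read -2.40 and -3.15 in control and -3.34 and -3.91 with auxin, over 2 windows. The auxin and control values do not overlap for any of them, which the rule largely fixes, since each was named for lying in a delayed bin.

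Among transcription factors, Neurod6, of the neuronal lineage, read -1.51 and -1.48 in control and -2.56 and -2.63 with auxin over 1 window. Ptf1a, a factor of pancreas and inhibitory neurons, read -0.69 and -0.52 in control and -1.11 and -1.63 with auxin over 1 window. Tcf4, on chromosome 18, had 2 runs in its body, the longer of 6 bins with a difference of -0.93. None of the cadherin genes outside the clusters (19 in the control range), collagen and laminin genes (23), T-box, GATA and other mesoderm or endoderm genes (10), Sox genes (7), fibroblast growth factor genes (6), replication genes (3) or pluripotency genes (1) had its centre in a delayed bin. None of the 18 CTCF and cohesin genes had its centre in a bin of the control range. Beside the 4.29% of all genes in that range, the lists with none are too short for anything to be read from them.

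Of 1000 olfactory and vomeronasal receptor genes in the control range, 23 (2.30%) had their centre in a delayed bin, beside 4.29% of all genes in that range. They lay in few places: a run of 6 bins on chromosome 9 (chr9:38750001-39050000), with -1.65 and -1.14 in control and -2.40 and -2.34 with auxin, held most of them, and none of the 6 bins passed the limma test. These related genes may share reads, which was not tested. Over the genes of the list with a window in the body the median difference was 0.19, towards earlier replication. Only 62 genes of the list had 3 or more windows there. Of 361 solute carrier genes 5 lay in delayed bins (97 in the control range), among them Slc7a11, the cystine transporter, at -3.12 and -3.15 in control and -4.17 and -3.40 with auxin. Of 77 cytosolic ribosomal protein genes, 7 were in the control range and only Rpl34 of them lay in a delayed bin. The same share of 4.29% stands beside the solute carrier and ribosomal lists, and their small counts are descriptions.

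The authors' deposited table of early-to-late regions, made from the same profiles, lists 63 regions. Of these 40 (63.5%) cover 50% or more of a bin among the 721, and they account for 90 of the bins (12.5%) and 30 of the runs (8.24%). None of the 22 regions of the authors' deposited late-to-early table does so. As the lists and the bins were chosen on the same 4 profiles, the overlap compares limits and is no independent support.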

How the data were processed

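Replication timing was measured by Repli-seq in 2 groups with 2 profiles each. Cells labelled with BrdU were sorted by DNA content into early and late S phase, and their labelled DNA was pulled down with an antibody and sequenced, per the labels' protocols. The submitters' processing notes name the tools Bowtie2, SAMtools and bedtools and the build mm10. The versions, filters, smoothing and formula that joined both libraries were not given in the sources used here. The authors deposited a timing score per window of a 6-kb grid, quantile normalized; sorted, the 4 columns were identical. Read depth is unknown, so no interval was set on it. The authors also deposited 2 lists of regions, of which only the positions were used.

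Scores were averaged in 50-kb bins with 3 or more windows with Python 3.11.15, pandas 2.3.3 and numpy 2.4.6. The groups were compared in R 4.3.3 with limma 3.58.1 (treatment as the only term in lmFit, then eBayes), over all bins including the X chromosome. The fit was first run on simulated data with independent noise drawn from its own variance model. That run cannot show how the fit behaves on neighbouring bins that are not independent. The replicate numbers are not stated to pair samples, and deviations of same-numbered profiles correlated at 0.033. Gene positions and promoters came from RefSeq GRCm38.p6 tables; 81.7% of 20154 protein-coding genes outside chromosome 18 had a start in the promoter table, which is why lists were counted by the centre of the gene body, a choice made after that gap was seen. Named genes were those of the 12 longest runs (3 per run), the bins with the largest differences, and up to 2 per list; the other genes named, those with a motif match or in short counts included, were chosen after their values were seen. Of the 12 runs, 1 is not reported here. The members, the 23 lists and the tests were chosen with earlier results of these data known. Alternatives were bin size, the limits, the minimum of windows, the median in place of the mean, the variance model, a replicate block and each profile left out.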

Additional observations from a re-analysis of the deposited data

How the results depend on the processing

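The number of delayed bins was set by the limits: 329 with bins of 100 kb, 256 with a limit of -1.0 and 1719 with -0.6. It ranged from 798 to 1059 with each profile left out, of which 529 to 596 were among the 721, while the runs numbered 458 to 589. The median of the windows, no minimum of windows and a control limit of 0 gave 750, 757 and 598 bins. The limma count of later bins over the genome went from 435 to 2417 with a trended, robust variance, 1291 with the replicate block, 1415 with 6 or more windows, 152 with the median and 0 with no minimum of windows (8898 at an unadjusted p under 0.05), and ranged from 0 to 79 in limma with a profile left out, where the lone profile is assumed to vary like the other group (6123 to 8766 at an unadjusted p under 0.05). Of the bins that then met the rule, 648, 657 (replicate block), 581, 71 and 0 were called, and 0 to 31 with a profile left out. The replicate number is shared by the groups but not stated to pair the profiles. In unused profiles the median was -0.45 for replicate 1 picks made against the other control, and -0.66 and -0.59 for replicate 1 and 2 picks with 6 or more windows. The 12 named runs kept their sign in all 60 alternatives, from -0.75 to -1.66, as did the named genes in 200, from -0.26 to -1.95, of which 10 moved by more than the spread between replicates. With a profile left out the sign could not turn, since both auxin values lay below both control values in each run and gene body. Nor could such a value move by more than that spread, so these alternatives are no sign of robustness. All 10 that moved used the bin of the gene start in place of the gene body. The causes of these changes were not tested. With 2 profiles a group and no read counts in the files, single bins are uncertain, above all those near the limit.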

Other observations

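The X chromosome lay outside the rule. Of its 1180 bins with 3 or more windows and a control mean of 0.5 or lower, 73 (6.19%) met the other limits, beside 2.94% of autosomal bins and 6.01% of those on chromosome 12.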
